A study of Mus musculus with 18 samples.

Results

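The 8 genes described here, Cnr1, Dagla, Daglb, Napepld, Mgll, Abhd6, Abhd12 and Faah, encode the main cannabinoid receptor of the brain and the enzymes that make and remove its lipid ligands. They were chosen by symbol, and all 8 were matched to a row of a table of 57180 Ensembl gene identifiers. Hippocampal RNA was sequenced from 18 adolescent male C57BL/6J mice of the WT genotype, with 1 library per mouse and 6 mice in each of 3 groups. Mice of the CSDS with exercise group underwent repeated social defeat (CSDS, for chronic social defeat stress), in which the mouse is placed as an intruder with an aggressive resident, and trained aerobically from 1 week before the defeat period until its end. Mice of the CSDS group had the defeat without the training, and control mice had no treatment. All libraries carry the same batch label. No group was trained without defeat, so exercise can be compared only among defeated mice or together with defeat. The comparisons ask whether defeat changed the transcripts of this signalling system in the hippocampus, and whether training changed them in defeated mice.

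Endocannabinoids are lipids cut from the membrane on demand. In the hippocampus, 2-arachidonoylglycerol is made by diacylglycerol lipases at the postsynaptic side, crosses the synapse backwards and lowers transmitter release through the CB1 receptor, which is densest on the axon terminals of cholecystokinin-containing interneurons and is also carried by glutamatergic terminals. Anandamide, the other main ligand, is an N-acylethanolamine. Monoacylglycerol lipase removes most 2-arachidonoylglycerol in the brain, ABHD6 and ABHD12 remove much of the rest, and fatty acid amide hydrolase removes anandamide. Both ligands are known as regulators of the response to stress, and plasma anandamide is known to rise with aerobic exercise. Transcript levels do not measure the lipids, the enzymes' activity or the receptor protein.

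All 5 enzymes that make or remove 2-arachidonoylglycerol are serine hydrolases whose catalytic serine sits in the motif Gly-X-Ser-X-Gly. Their coding sequences around that serine are shown because this shared feature is what ties the diacylglycerol lipases and the 3 removing enzymes into 1 chemical class. Each window of 45 bases was read 5′ to 3′ from the reference transcripts (GENCODE M21, GRCm38), with the 5 codons of the motif in capitals. The serine is codon 472 in Dagla (chr19:10254884-10254928, minus strand) and codon 443 in Daglb (chr5:143494548-143494592, plus strand). It is codon 122 in Mgll (chr6:88808121-88809353, plus strand, spliced across an intron) and codon 148 in Abhd6 (chr14:8042724-8042768, plus strand). In Abhd12 it is codon 246 (chr2:150838769-150839754, minus strand, spliced across an intron).
Dagla: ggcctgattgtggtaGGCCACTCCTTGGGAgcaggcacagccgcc
Daglb: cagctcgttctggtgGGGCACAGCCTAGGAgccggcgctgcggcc
Mgll: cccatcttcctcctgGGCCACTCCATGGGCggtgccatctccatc
Abhd6: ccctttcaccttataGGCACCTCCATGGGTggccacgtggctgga
Abhd12: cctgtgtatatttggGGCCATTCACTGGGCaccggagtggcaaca
The motif alone is common: 3980 of 21584 protein-coding genes (18.4%) held at least 1 match to it in frame. Mgll, Dagla and Abhd12 held further matches elsewhere in their coding sequence, Daglb and Abhd6 held only the 1 shown, and Cnr1 and Napepld held none. Faah held 2 overlapping matches, at serine codons 217 and 218. This enzyme belongs to the amidase signature family, whose catalytic centre is of another kind. Base composition differs among the 8 genes. Median transcript GC content was 58.8% for Dagla, 56.1% for Mgll, 56.1% for Faah, 54.0% for Abhd12, 51.1% for Daglb, 49.0% for Abhd6, 45.6% for Napepld and 44.9% for Cnr1, against a median of 50.5% over the genes tested.

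Libraries held 18911080 to 24136591 estimated counts, and the lowest member in any library, Napepld, had 408. Counting error alone, as the inverse square root of the count, averaged 4.04% for Napepld in CSDS mice, where the spread between mice was 3.49%, and was below the spread for every other member and group. The library of control replicate 2 stood apart. Its dentate granule cell markers summed to 112 CPM (counts scaled to a common library size of 1000000), against 391 to 772 CPM in the other 17 libraries, with Prox1 at 10.4 CPM against 83.5 to 145 CPM and C1ql2 at 0.408 CPM against 40.7 to 142 CPM. Its neocortical markers summed to 761 CPM against 199 to 267 CPM, so its markers went in part against its hippocampal label. Thalamic markers were high in CSDS with exercise replicates 6 and 3 (869 and 327 CPM) and in control replicates 3 and 1 (640.2 and 330.4 CPM), against 65.3 to 167 CPM in the other 14 libraries. None of the 97 markers in 12 cell type lists was at 0 in every library. Libraries also differed in how strongly gene level followed GC content. That trend, in log2 units for each 10 points of GC, averaged -0.16 ± 0.21 in CSDS with exercise, 0.12 ± 0.18 in CSDS and 0.05 ± 0.15 in control libraries (SD, n = 6 each). CSDS with exercise replicate 4, at 0.19, was the only library of its group with a slope above 0. It also had the highest sum of dentate granule cell markers, 772 CPM, where the next library had 525 CPM. Its microglia markers summed to 554 CPM, against at most 489 CPM in any other library. The part of these markers in the member values was not tested. Single members moved without control replicate 2 or CSDS with exercise replicate 4, and those values stand beside the results.

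Levels between genes were compared per length, in CPM per kilobase of median transcript, over all 18 libraries. Mgll (207 ± 49.3) and Abhd12 (191 ± 20.0) were highest, followed by Faah (68.0 ± 13.9), Dagla (37.4 ± 12.3), Cnr1 (28.6 ± 5.43), Abhd6 (27.1 ± 2.14), Daglb (9.93 ± 1.45) and Napepld (7.68 ± 1.078; SD over 18 libraries). Thus, per length, 3 removing enzymes led the order and 1 synthesizing enzyme of each ligand closed it. Abhd12 lay above Faah, and Abhd6 above Daglb, in 18 of 18 libraries with no overlap of their ranges. Faah was also above Dagla in 18 of 18 libraries, although their ranges overlapped, and Daglb was above Napepld in 17 of 18. In 3 pairs of neighbours the levels did not differ beyond their spread: Mgll was above Abhd12 in 11 of 18 libraries, Dagla above Cnr1 in 13 of 18, and Cnr1 above Abhd6 in 10 of 18. Division by the longest annotated transcript in place of the median moved 4 ranks. Abhd12 was then at 123, Mgll at 60.6, Dagla at 37.1 and Faah at 28.7 CPM per kilobase.

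**Figure D1:**
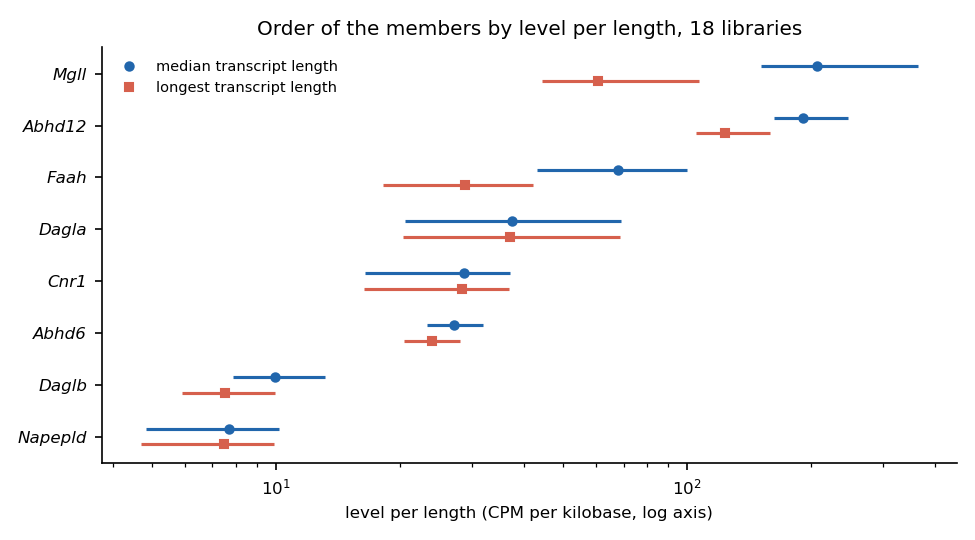
Level per length of each member in CPM per kilobase on a log axis. Points are means and lines run from the lowest to the highest of 18 libraries, for the median transcript length (circles) and the longest transcript (squares). Mgll and Abhd12 lead on either length, and Daglb and Napepld are lowest, at 9.93 and 7.68 CPM per kilobase on the median length.

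No member passed the edgeR test in any comparison. By edgeR's quasi-likelihood test, 0 of 8 members had a Benjamini-Hochberg adjusted p under 0.05 in CSDS against control, where 0% of the 16738 genes tested did. The count was 0 of 8 in CSDS with exercise against CSDS (0% of all genes) and 0 of 8 in CSDS with exercise against control (0.0179% of all genes, 3 genes). DESeq2 called 0 of 8 members in each of the 3 comparisons as well, where it called 0%, 0.89% and 0.675% of all genes. Voom with quality weights called 0 of 8 members in CSDS against control (0% of all genes), 2, Mgll and Dagla, in CSDS with exercise against CSDS (33.3%) and 0 in CSDS with exercise against control (1.09%). At an unadjusted p under 0.05 the members numbered 0 in CSDS against control (3.51% of all genes), 0 in CSDS with exercise against CSDS (15.6%) and 1, Mgll, in CSDS with exercise against control (11.2%). For every member the values of any 2 groups overlapped, as they did for all but 0.239%, 0.89% and 0.562% of genes in the 3 comparisons. The median log2 fold change of the members was -0.04 in each comparison, against 0.00, 0.02 and 0.01 over all genes. Any 2 of the comparisons share the libraries of 1 group, so their values are not independent. In tissue RNA, fewer cells of a type and less RNA per cell cannot be told apart.

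**Figure D2:**
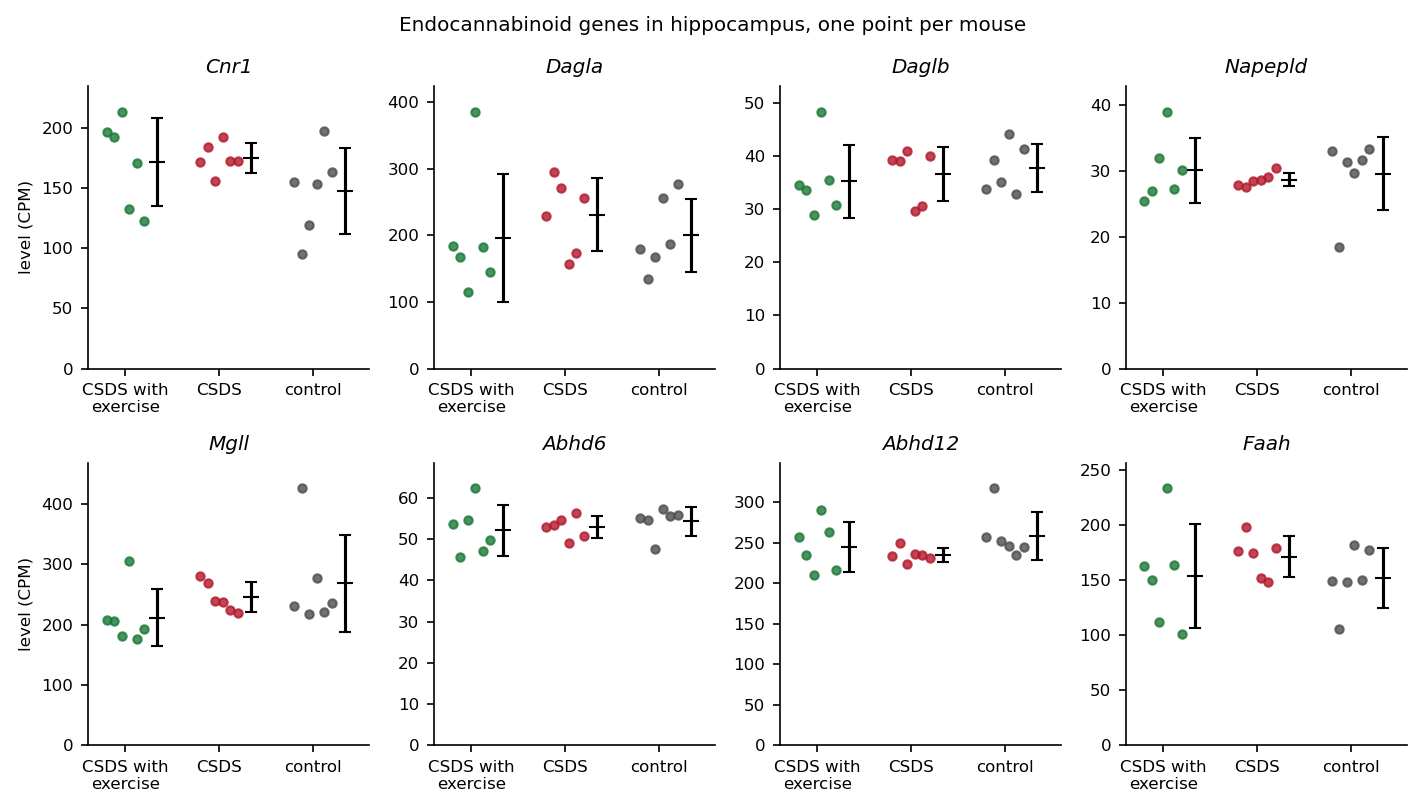
Level of each member in CPM, with 1 point per mouse in replicate order and the mean ± SD of the 6 mice of a group beside the points. Within every panel the 3 groups overlap. Single mice stand out: CSDS with exercise replicate 4 for Dagla (386 CPM) and control replicate 2 for Mgll (427 CPM).

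Cnr1 (ENSMUSG00000044288, chr4:33924593-33948831, plus strand, GRCm38) encodes the CB1 receptor, a Gi/o-coupled receptor of axon terminals. Its lowest, median and highest levels were 123, 182 and 214 CPM in CSDS with exercise mice. In CSDS mice they were 156, 173 and 193 CPM, and in control mice 94.98, 155 and 198 CPM. The 6 CSDS mice lay close together, while the lowest exercised and control mice lay well below them. Cnr1 averaged 172 ± 36.7 CPM in CSDS with exercise, 175 ± 12.6 CPM in CSDS and 148 ± 35.9 CPM in control mice (SD, n = 6 each). The log2 fold change was 0.25 ± 0.16 (SE) in CSDS against control, with a 95% interval of -0.08 to 0.57 and an edgeR adjusted p of 0.993. It was -0.03 ± 0.15 in CSDS with exercise against CSDS (adjusted p = 0.942) and 0.22 ± 0.16 in CSDS with exercise against control (adjusted p = 0.605). The 3 lowest Cnr1 levels were in control replicate 2 (94.98 CPM), the library with neocortical markers, and in control replicate 3 and CSDS with exercise replicate 6 (119.8 and 123 CPM), with the 2 highest sums of thalamic markers. The other 2 libraries high in thalamic markers went the other way: CSDS with exercise replicate 3 had the highest Cnr1 of all 18, at 214 CPM, and control replicate 1 had 155.4 CPM. Without control replicate 2 the log2 fold change was 0.15 ± 0.14 in CSDS against control and 0.12 ± 0.14 in CSDS with exercise against control, and without control replicate 3 these were 0.19 ± 0.16 and 0.16 ± 0.16. Without CSDS with exercise replicate 6 the exercised mice gave 0.05 ± 0.15 against CSDS and 0.30 ± 0.15 against control mice (edgeR adjusted p = 0.501 in the second). With the GC trend removed, CSDS with exercise gave -0.19 ± 0.15 against CSDS and 0.09 ± 0.15 against control mice. CSDS against control then gave 0.28 ± 0.15 (edgeR unadjusted p = 0.0764, adjusted 0.993). Markers of cholecystokinin-containing and other interneurons summed to 1818 CPM in control replicate 2, against 1241 to 1660 CPM in the other 17 libraries. The sum of 1241 CPM was that of CSDS with exercise replicate 6, so these 2 libraries low in Cnr1 held the highest and the lowest sum. The part of those regions and cells in the Cnr1 values was not tested.

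Dagla (ENSMUSG00000035735, chr19:10245265-10304877, minus strand) encodes DAGLα, the main source of 2-arachidonoylglycerol for retrograde signalling in the adult brain. It varied more than any other member: its highest library was 3.36-fold above its lowest, against 1.37-fold for Abhd6. The lowest, median and highest levels were 115, 175 and 386 CPM in CSDS with exercise, 157, 243 and 296 CPM in CSDS, and 134, 183 and 277 CPM in control mice. The 386 CPM of CSDS with exercise replicate 4 was the highest of all 18 libraries, while the other 5 exercised mice had at most 184 CPM. Dagla averaged 197 ± 96.2 CPM in CSDS with exercise, 231 ± 54.9 CPM in CSDS and 200.02 ± 54.9 CPM in control mice (SD, n = 6 each). Its log2 fold change was 0.21 ± 0.25 in CSDS against control (edgeR adjusted p = 0.993), and 0.11 ± 0.25 without control replicate 2. It was -0.23 ± 0.25 in CSDS with exercise against CSDS, with a 95% interval of -0.75 to 0.29 (edgeR adjusted p = 0.659). Leaving out CSDS with exercise replicate 4 moved that value to -0.56 ± 0.20 (edgeR adjusted p = 0.0928, where 625 of all genes were then called), and removing each library's trend with GC content moved it to -0.0026 ± 0.18. Against control mice, CSDS with exercise gave -0.03 ± 0.25 (edgeR adjusted p = 0.98), -0.12 ± 0.25 without control replicate 2 and -0.36 ± 0.20 without CSDS with exercise replicate 4 (edgeR adjusted p = 0.305).

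Daglb (ENSMUSG00000039206, chr5:143464584-143505942, plus strand) encodes DAGLβ, the second diacylglycerol lipase, which is best known from microglia and macrophages. Levels ran from 28.8 to 48.3 CPM in CSDS with exercise, from 29.7 to 40.9 CPM in CSDS and from 32.9 to 44.2 CPM in control mice, with medians of 34.1, 39.2 and 37.2 CPM. CSDS with exercise replicate 4 was again the highest of all. The log2 fold changes were -0.04 ± 0.12 in CSDS against control, -0.05 ± 0.12 in CSDS with exercise against CSDS and -0.10 ± 0.12 in CSDS with exercise against control (edgeR adjusted p = 0.993, 0.852 and 0.785). Their 95% intervals together reached from -0.35 to 0.21. Without CSDS with exercise replicate 4 the exercised mice gave -0.18 ± 0.11 against CSDS (edgeR adjusted p = 0.289) and -0.24 ± 0.11 against control mice (edgeR unadjusted p = 0.0421, adjusted 0.222). Within a library, the log2 ratio of Dagla to Daglb counts averaged 2.39 ± 0.33 in CSDS with exercise, 2.63 ± 0.18 in CSDS and 2.37 ± 0.33 in control mice (SD, n = 6 each), and the groups overlapped.

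Napepld (ENSMUSG00000044968, chr5:21662901-21701396, minus strand) encodes NAPE-PLD, a phospholipase D that releases anandamide and related N-acylethanolamines from the membrane and is not a serine hydrolase. Its lowest, median and highest levels were 25.5, 28.7 and 39.1 CPM in CSDS with exercise, 27.6, 28.5 and 30.4 CPM in CSDS, and 18.5, 31.6 and 33.3 CPM in control mice. The 6 CSDS mice lay closest together, and the extremes of all 18 libraries were CSDS with exercise replicate 4 above and control replicate 2 below. Napepld averaged 30.2 ± 4.95 CPM in CSDS with exercise, 28.7 ± 1.00 CPM in CSDS and 29.6 ± 5.60 CPM in control mice (SD, n = 6 each). The log2 fold change was -0.05 ± 0.13 in CSDS against control (edgeR adjusted p = 0.993). Without control replicate 2 it was -0.15 ± 0.09 (edgeR adjusted p = 0.9997). The exercise comparisons gave 0.07 ± 0.13 against CSDS and 0.03 ± 0.13 against control mice (edgeR adjusted p = 0.793 and 0.954), and both signs turned without CSDS with exercise replicate 4, to -0.04 and -0.09.

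Mgll (ENSMUSG00000033174, chr6:88724412-88828360, plus strand) encodes monoacylglycerol lipase, the main enzyme of 2-arachidonoylglycerol removal. It gave the smallest p of any member. Its lowest, median and highest levels were 177, 199 and 305 CPM in CSDS with exercise, 219, 239 and 282 CPM in CSDS, and 218, 234 and 427 CPM in control mice. Apart from replicate 4, at 305 CPM, every exercised mouse was below every CSDS mouse and every control mouse. The other 5 exercised mice had at most 208 CPM, and the lowest of the other 12 mice had 218 CPM. Replicate 4 was set apart here after seeing the values, and the share of all genes separating this way was not computed. Without replicate 4, edgeR called 625 of all genes in CSDS with exercise against CSDS. Mgll averaged 212 ± 47.7 CPM in CSDS with exercise, 246 ± 24.9 CPM in CSDS and 268 ± 80.5 CPM in control mice (SD, n = 6 each). Its log2 fold change was -0.34 ± 0.16 in CSDS with exercise against control, with a 95% interval of -0.68 to -0.01 and an edgeR adjusted p of 0.44. Without control replicate 2, the library with neocortical markers and 427 CPM of Mgll, it was -0.16 ± 0.12 (adjusted p = 0.586). Without CSDS with exercise replicate 4 it was -0.51 ± 0.14 (adjusted p = 0.0834). With the GC trend removed it was -0.25 ± 0.15 (edgeR unadjusted p = 0.104), and with the trend removed and control replicate 2 left out -0.05 ± 0.09 (adjusted p = 0.921). In CSDS with exercise against CSDS the log2 fold change was -0.22 ± 0.16 (edgeR adjusted p = 0.505), without replicate 4 of the exercised mice -0.37 ± 0.14 (adjusted p = 0.12), and with the GC trend removed -0.07 ± 0.15. CSDS against control gave -0.13 ± 0.16 (edgeR adjusted p = 0.993) and 0.05 ± 0.12 without control replicate 2.

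Abhd6 (ENSMUSG00000025277, chr14:8002902-8056763, plus strand) encodes a postsynaptic monoacylglycerol lipase that removes 2-arachidonoylglycerol near its site of synthesis. It was the steadiest member. Levels ran from 45.6 to 62.4 CPM in CSDS with exercise, from 49.1 to 56.5 CPM in CSDS and from 47.5 to 57.3 CPM in control mice, with medians of 51.7, 53.3 and 55.4 CPM. The log2 fold changes were -0.04 ± 0.08 in CSDS against control, -0.02 ± 0.08 in CSDS with exercise against CSDS and -0.06 ± 0.08 in CSDS with exercise against control (edgeR adjusted p = 0.993, 0.914 and 0.795). Their 95% intervals were the narrowest of the 8 members, and together they reached from -0.22 to 0.14. Without CSDS with exercise replicate 4, the highest of all 18 libraries, the exercised mice gave -0.10 ± 0.07 against CSDS and -0.15 ± 0.07 against control mice (edgeR adjusted p = 0.385 and 0.244).

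Abhd12 (ENSMUSG00000032046, chr2:150832493-150904741, minus strand) encodes an integral membrane lipase that removes some 2-arachidonoylglycerol and is best known for removing lysophosphatidylserine, and its loss in humans causes a neurodegenerative disease. Its lowest, median and highest levels were 210.0, 246 and 291 CPM in CSDS with exercise, 224, 234 and 249.7 CPM in CSDS, and 234, 249.8 and 318 CPM in control mice. Control replicate 2 was highest. Abhd12 averaged 246 ± 30.9 CPM in CSDS with exercise, 235 ± 8.38 CPM in CSDS and 259 ± 29.8 CPM in control mice (SD, n = 6 each). The log2 fold change was -0.14 ± 0.09 in CSDS against control, with a 95% interval of -0.32 to 0.04 (edgeR adjusted p = 0.993), and -0.07 ± 0.08 without control replicate 2. It was 0.06 ± 0.09 in CSDS with exercise against CSDS and -0.08 ± 0.09 in CSDS with exercise against control (edgeR adjusted p = 0.739 and 0.762). The value against control mice was -0.0097 ± 0.079 without control replicate 2 and -0.16 ± 0.09 without CSDS with exercise replicate 4, and the value against CSDS mice was -0.0092 without the last of these libraries. With the GC trend removed, CSDS with exercise against CSDS gave 0.14 ± 0.08 (edgeR adjusted p = 0.855). CSDS against control then gave -0.17 ± 0.08 (edgeR unadjusted p = 0.0526, adjusted 0.993).

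Faah (ENSMUSG00000034171, chr4:115967145-116017926, minus strand) encodes fatty acid amide hydrolase, which removes anandamide, largely in principal neurons facing CB1-bearing terminals. Its lowest, median and highest levels were 101, 156 and 234 CPM in CSDS with exercise, 148, 175 and 199 CPM in CSDS, and 106, 149.7 and 182 CPM in control mice. The exercised group held both the lowest and the highest of the 18 libraries, replicate 6 and replicate 4. Faah averaged 154 ± 47.1 CPM in CSDS with exercise, 172 ± 18.7 CPM in CSDS and 152 ± 27.4 CPM in control mice (SD, n = 6 each). The log2 fold change was 0.17 ± 0.17 in CSDS against control (edgeR adjusted p = 0.993; 0.09 ± 0.16 without control replicate 2) and -0.16 ± 0.17 in CSDS with exercise against CSDS (edgeR adjusted p = 0.655). In the second of these, the value was -0.33 ± 0.15 without CSDS with exercise replicate 4 (adjusted p = 0.165) and -0.01 ± 0.13 with the GC trend removed. CSDS with exercise against control gave 0.02 ± 0.17 (edgeR adjusted p = 0.981), -0.07 ± 0.16 without control replicate 2 and -0.17 ± 0.15 without CSDS with exercise replicate 4.

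**Figure D3:**
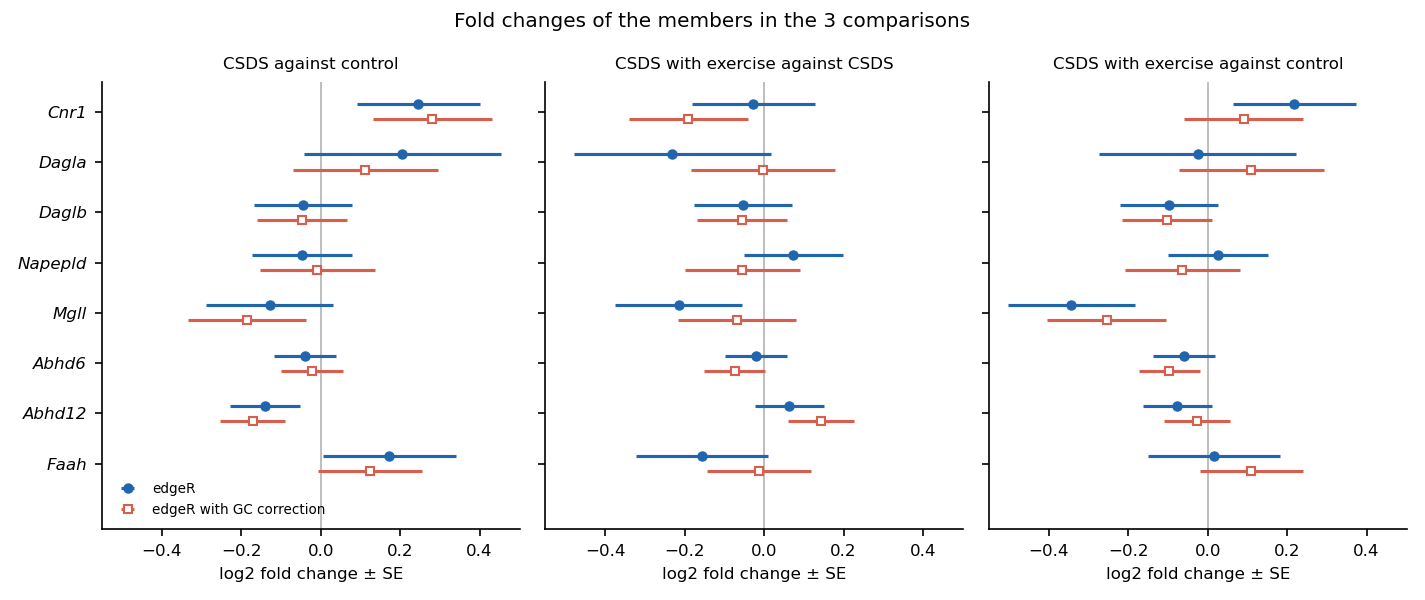
Log2 fold change ± SE of each member in the 3 comparisons, from edgeR (filled circles) and from edgeR with each library's GC trend removed (open squares). With the trend removed, Dagla, Faah and Mgll in CSDS with exercise against CSDS lie at -0.0026, -0.014 and -0.069, against -0.23, -0.16 and -0.22 without the correction.

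Ratios within a library do not depend on how that library is scaled, and they set a synthesizing enzyme against the enzyme that removes its product. The log2 ratio of Dagla to Mgll averaged -0.19 ± 0.35 in CSDS with exercise, -0.12 ± 0.34 in CSDS and -0.42 ± 0.65 in control mice (SD, n = 6 each). Control replicate 2 alone, at -1.67, set the low end of the control group, whose mean was -0.18 without it. For Napepld over Faah the mean log2 ratio was -2.31 ± 0.42 in CSDS with exercise, -2.57 ± 0.18 in CSDS and -2.37 ± 0.18 in control mice, and the groups overlapped. The exercised mice spread widest, with a median of -2.53, and replicates 6 and 3 were highest, at -1.75 and -1.80. Those libraries had GC slopes of -0.23 and -0.44 and were high in thalamic markers. Napepld and Faah differ in GC content (45.6% and 56.1%), and their r with the GC slope was 0.17 and 0.76. The part of the GC trend and of the thalamic markers in the ratios was not tested.

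Dagla, Daglb and Faah followed the GC trend of their library. Over the 18 libraries, the log2 level of Dagla correlated with the GC slope at Pearson r = 0.87 (permutation p = 1e-05, the smallest that 100000 permutations can give; adjusted over the 8 members 8e-05) and Spearman rho = 0.81. Without the 2 libraries with the farthest slopes r was 0.84, and within CSDS with exercise, CSDS and control it was 0.98, 0.98 and 0.79. Daglb gave r = 0.82 and rho = 0.77 (permutation p = 4e-05, adjusted 0.00016; 0.75 without the 2 farthest). Faah gave r = 0.76 and rho = 0.75 (permutation p = 0.00021, adjusted 0.00056; 0.70 without the 2 farthest). For Mgll r was 0.48 (permutation p = 0.0401, adjusted 0.0802) and rho 0.68 (adjusted 0.005), and r was 0.80 without control replicate 2 and 0.35 without the 2 farthest. Abhd6, Abhd12, Napepld and Cnr1 gave r of 0.38, 0.19, 0.17 and -0.18, with adjusted permutation p of 0.198 to 0.512. Daglb, with a GC content of 51.1%, is near the median of all genes, so GC content does not order the members by this correlation. The slope was computed from all genes, members included, so a gene of high GC content follows it in part by construction. The permutation p values therefore do not set the members apart from other genes. How many of all genes reach such an r was not computed. The slope differed between groups, being lowest in the exercised mice. What set the slope of a library was not tested.

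**Figure D4:**
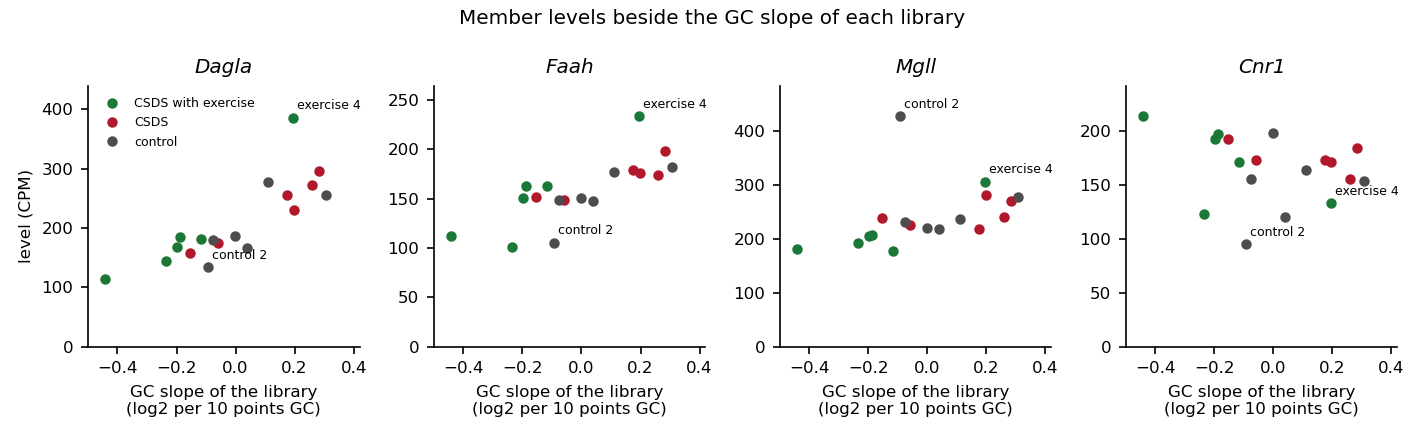
Level of Dagla, Faah, Mgll and Cnr1 in CPM (vertical axis) against the GC slope of the library in log2 units for each 10 points of GC (horizontal axis), with 1 point per mouse coloured by group. Dagla and Faah rise with the slope (r = 0.87 and 0.76), Mgll does so apart from control replicate 2, and Cnr1 does not (r = -0.18).

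Among the members themselves, 28 pairs were correlated over the 18 libraries. Faah and Dagla, which act on different ligands, formed the closest pair, with r = 0.91 and rho = 0.92 (permutation p = 1e-05, the smallest possible; adjusted over 28 pairs 0.00028). Without the 2 libraries farthest from the median of the first gene named in a pair, here Faah, r was 0.96. With group means removed it was 0.90. Without control replicate 2 it was 0.907, and Dagla and Daglb were then the closer pair, at 0.936. The share of all gene pairs with such an r was not computed. Dagla and Daglb gave r = 0.84 and rho = 0.77 (permutation p = 3e-05, adjusted 0.00042), and 0.94 without control replicate 2. Faah and Daglb gave r = 0.68 and rho = 0.73 (permutation p = 0.00129, adjusted 0.012). These 3 genes are also the ones that followed the GC slope, and their correlation apart from it was not tested. Mgll and Abhd12 gave r = 0.68 (permutation p = 0.00287, adjusted 0.0201) but rho = 0.32, and r fell to 0.42 without control replicate 2 and to 0.17 without the 2 farthest libraries, so the relation rests on those libraries. Mgll and Daglb gave r = 0.60 (permutation p = 0.00709, adjusted 0.0397), rho = 0.59 (adjusted 0.0778) and 0.61 without the 2 farthest. Other coefficients were higher without control replicate 2. Faah and Mgll had r = 0.15 with it and 0.75 without it, and Mgll and Dagla had 0.30 with it and 0.78 without it. These coefficients without control replicate 2 carry no p. In those libraries Faah, Mgll and Dagla also correlated with the GC slope, at r of 0.80, 0.80 and 0.88. Their correlation apart from the slope was not tested. No pair of Cnr1 with an enzyme had an adjusted permutation p under 0.05, and r was 0.26 with both Faah and Napepld. The lowest coefficients of Cnr1 were with Abhd12 (r = -0.58, rho = -0.41, permutation p = 0.0131, adjusted 0.061) and Mgll (r = -0.57, rho = -0.37, permutation p = 0.0161, adjusted 0.0644). They were -0.29 and -0.23 without control replicate 2. Napepld too had negative r with these genes over 18 libraries, -0.34 with Abhd12 and -0.39 with Mgll. Without control replicate 2 the Napepld coefficients were 0.29 and 0.31.

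**Figure D5:**
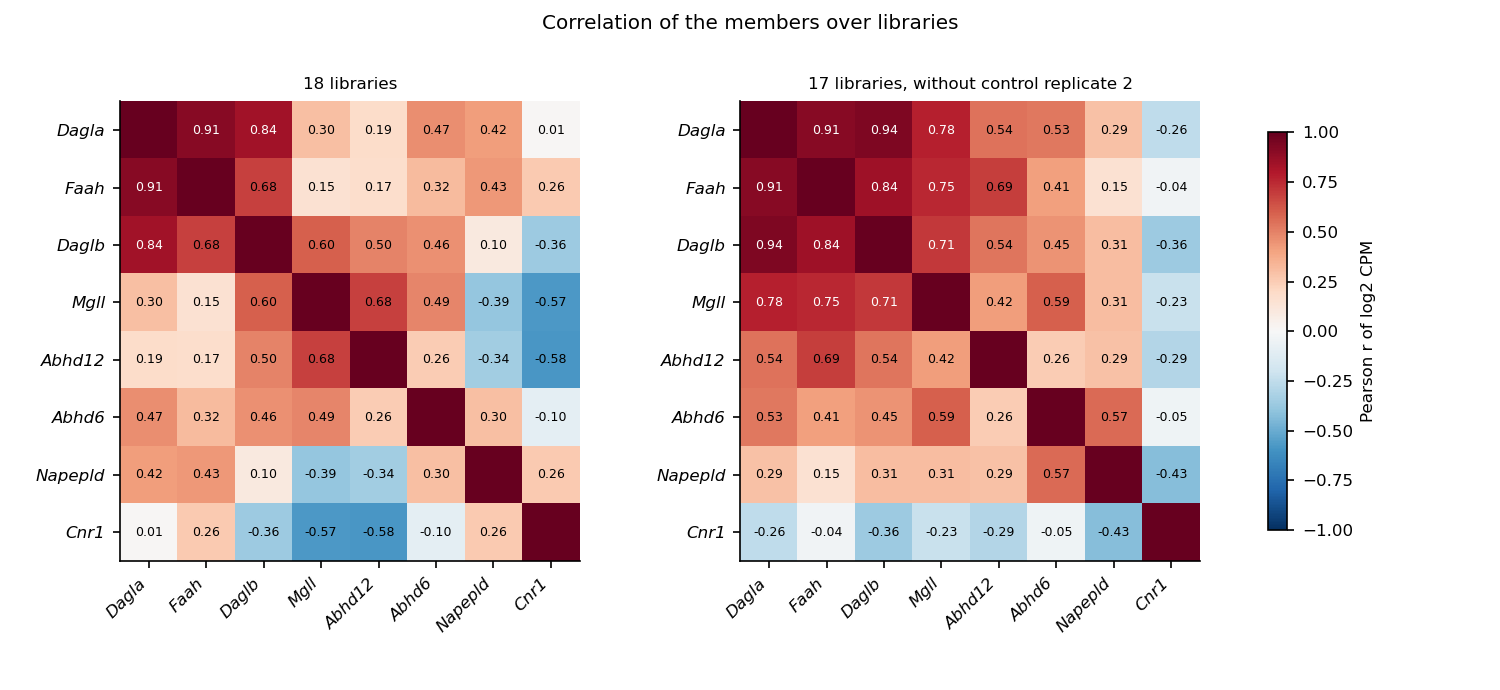
Pearson correlation of log2 CPM between members over 18 libraries (left) and over the 17 libraries other than control replicate 2 (right). Dagla, Faah and Daglb form a block of high coefficients in both, Mgll joins it in the right panel (0.71 to 0.78), and Cnr1 is below 0 with all 7 enzymes there (-0.43 to -0.04).

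For each member, the genes most like it across the 18 libraries were sought among genes with a mean of at least 5 CPM. The coefficients are a description, since the libraries share their depth, GC trend and regional make-up. Dagla was most like Camta2 and Coro7 (r = 0.98 and 0.98), and Faah most like Camkk1 and Camk2b (0.98 and 0.98). Abhd12 was most like Ndrg3 and Poldip2 (0.95 and 0.92), and Daglb was close to Ankrd27 (0.95). For Mgll the nearest genes were Rcan1 and Lrrc75a (0.93 and 0.93), and for Cnr1 Pls3 and Neto1 (0.91 and 0.89). Napepld came nearest to Egfem1 and Mcmbp (0.85 and 0.83) and Abhd6 to Fcrls and Mapkap1 (0.80 and 0.80). The order depended in part on control replicate 2. Without that library Egfem1 ranked 55 for Napepld (r = 0.61; rho = 0.53 with all 18 libraries), Rcan1 and Lrrc75a ranked 17 and 54 for Mgll (0.88 and 0.86), and Pls3 and Neto1 ranked 9 and 5 for Cnr1 (0.85 and 0.87), whereas the match of Faah with Camkk1 stayed at 0.98.

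The wider pathway was read from a list of 37 other genes: receptors of related lipids, CB1-binding proteins, the Gq-coupled receptors, G proteins and phospholipases C that supply diacylglycerol, other enzymes of N-acylethanolamine synthesis and breakdown, fatty acid-binding proteins and the inhibitory G proteins used by CB1. Of these, 29 were tested and 8 were too low. The low genes include Cnr2, the CB2 receptor gene of immune cells, at 0.432 CPM on average, and Trpv1, a channel gated by anandamide, at 0.0443 CPM. In each of the 3 comparisons 0 of 29 passed edgeR's test in either direction, against 0%, 0% and 0.0179% of all genes. At an unadjusted p under 0.05, 1 was lower in CSDS against control (1.68% of all genes lower), 1 was higher in CSDS with exercise against CSDS (8.1% higher) and 4 were higher in CSDS with exercise against control (6.8% higher). The median log2 fold change of the 29 was 0.03, 0.10 and 0.04 in the 3 comparisons.

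Sgip1, whose product binds CB1 and slows its internalization, had the smallest p of the wider list in both exercise comparisons. It ran from 139.7 to 172 CPM in CSDS with exercise, from 125 to 139.9 CPM in CSDS and from 120.2 to 152 CPM in control mice, so the exercised mice were nearly but not fully above the CSDS mice. Its log2 fold change was 0.18 ± 0.07 against CSDS (edgeR unadjusted p = 0.0212, adjusted 0.26) and 0.22 ± 0.07 against control mice (edgeR unadjusted p = 0.00736, adjusted 0.28). With the GC trend removed these were 0.09 and 0.16. Gnaq, the Gq alpha subunit, was at 277 ± 28.3 CPM in CSDS with exercise and 232 ± 24.0 CPM in control mice (SD, n = 6 each), a log2 fold change of 0.26 ± 0.09 (edgeR adjusted p = 0.301). Grm5, the metabotropic glutamate receptor upstream of it, was at 188 ± 35.7 CPM in CSDS with exercise and 148 ± 34.8 CPM in control mice, a log2 fold change of 0.35 ± 0.14 (edgeR adjusted p = 0.385), and 0.25 without control replicate 2 or without CSDS with exercise replicate 3. In CSDS mice Gnaq was at 251 ± 24.7 CPM and Grm5 at 173 ± 13.0 CPM. Fabp7, a lipid carrier of astrocytes and neural progenitors, was at 18.03 ± 10.1 CPM in CSDS with exercise. It was at 15.6 ± 4.79 CPM in CSDS and 9.91 ± 3.11 CPM in control mice. The log2 fold change against control was 0.86 ± 0.32 with exercise (edgeR adjusted p = 0.327) and 0.65 ± 0.32 in CSDS (edgeR unadjusted p = 0.0561, adjusted 0.993). Medians of Fabp7 were 14.9 CPM in exercised and 17.7 CPM in CSDS mice, whose thalamic markers summed to 81.9 to 167 CPM. CSDS with exercise replicates 3 and 6, both high in thalamic markers, had 34.3 and 25.7 CPM of Fabp7. The other 4 exercised mice had 8.81 to 16.6 CPM, against 7.18 to 15.2 CPM in control mice. Control replicates 3 and 1, also high in thalamic markers, went the other way. Control replicate 5 had the 15.2 CPM, and all other control mice lay between 7.18 and 12.0 CPM. Without replicate 3 of the exercised mice, their Fabp7 value against control mice was 0.58 ± 0.30 (edgeR unadjusted p = 0.0674), and without replicate 6 it was 0.73 ± 0.33. The part of those markers in the Fabp7 values was not tested.

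Plcb4, a phospholipase C of Gq signalling that is abundant in thalamus, had the smallest p of the wider list in CSDS against control. It was at 16.6 ± 4.91 CPM in CSDS and 36.4 ± 28.0 CPM in control mice (SD, n = 6 each), a log2 fold change of -1.13 ± 0.52 (edgeR unadjusted p = 0.043, adjusted 0.993). It was -0.72 ± 0.50 without control replicate 2 and -0.92 ± 0.54 without control replicate 3 (edgeR unadjusted p = 0.166 and 0.104). The difference lay in single mice: control replicates 2 and 3 had 81.2 and 60.7 CPM, control replicate 1 had 29.1 CPM, and control replicates 4, 5 and 6 had 14.6 to 16.7 CPM, within the 11.4 to 23.1 CPM of the CSDS mice. CSDS with exercise replicates 6 and 3 had 94.9 and 49.7 CPM. All but control replicate 2 of these 4 libraries were also high in thalamic markers, and the part of those markers in the Plcb4 values was not tested.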

How the data were processed

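The authors deposited 1 table of expected counts per gene and library, not normalized; 22.7% of nonzero values were not whole. Per the submitters' processing notes, fastp, HISAT2 and RSEM were used with GRCm38 (mm10); no tool version, annotation release or strand setting is given there. RSEM divides reads that fit several genes, and overlapping or antisense genes are uncertain. Libraries were stranded and poly(A)-enriched from RNA of integrity number 7 or more, per the labels' protocols. Symbols were found for 51884 identifiers; the other 5296 held 0.62% of counts. Identifiers differ in part from GENCODE M21, the source of coordinates, lengths and GC content.

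Counts were rounded and fitted with edgeR 4.0.16 (R 4.3.3; filterByExpr with minimum count 10 and minimum total 15; TMM; quasi-likelihood F test over all 18 libraries with 1 term per group), with Benjamini-Hochberg adjustment over 16738 genes. CPM use TMM-scaled library sizes; intervals are 95%. The GC correction is an offset from a smooth (span 0.3) of each library's deviations on transcript GC, known for 98.1% of genes tested. Alternatives were DESeq2 1.42.0, voom with quality weights (limma 3.58.1), RLE or plain scaling, other filters, the replicate block, only the groups compared, and leaving out each library. Correlations used 100000 two-sided permutations (SciPy 1.17.1). The code was tested on simulated counts. No 2 libraries of a group were copies of each other: over 45 pairs, chi-square per gene was 9.46 to 159.

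The members, the wider list and the markers were chosen with earlier results of these data known. Named were all 8 members, up to 6 wider genes with the smallest p in each comparison, and the 2 genes most correlated with each member, of which 1 is not reported here. Fold changes without 1 library are edgeR fits of the other 17. The Dagla over Daglb ratio, the GC correction without control replicate 2 the spread without single libraries and the values of named wider genes without 1 library were added after seeing the data.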

Additional observations from a re-analysis of the deposited data

Results flagged for a closer look

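In each group of 6 mice, the highest and the lowest library were checked for a gap to the nearest of the others. A gap was flagged if, as a share of the group's range, it exceeds Dixon's 95% critical value. The check covered the members, the ratios and up to 6 wider genes with the smallest p in each comparison. Of 69 such groups, 10 held such a library, where chance gives about 1 in 20 for independent groups. These groups reuse the same 18 libraries and are not independent. Most flags fell on control replicate 2 or CSDS with exercise replicate 4.

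CSDS with exercise replicate 4 stood above its group for Mgll (305 CPM, the others at most 208), Dagla (386 CPM, the others at most 184) and Daglb (48.3 CPM, the others at most 35.4). Control replicate 2 stood apart for Mgll (427 CPM), Abhd12 (318 CPM), Napepld (18.5 CPM), Hrasls, also called Plaat1, an acyltransferase of N-acylethanolamine synthesis (29.2 CPM), and the log2 ratio of Dagla to Mgll (-1.67). Abhd6 was low in control replicate 3, at 47.5 CPM. Fabp7 was low in CSDS replicate 6, at 6.32 CPM, where the other CSDS mice had 14.5 to 19.0 CPM.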

How the results depend on the processing

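No member passed edgeR's test in any comparison under any scaling, filter, block, GC or sample alternative, nor DESeq2's; voom with quality weights called 2 of 8 members in CSDS with exercise against CSDS, Mgll (-0.34, adjusted p = 0.011) and Dagla (-0.48, adjusted p = 0.0175), and 8 wider genes, where it called 5567 genes in all (33.3%). The cause of that gap between tools was not tested. Other counts over all genes in CSDS with exercise against CSDS were 2 without a filter, 1 with the GC correction, 1 with only the 2 groups, 149 by DESeq2 and 0 to 625 with 1 library left out (625 without CSDS with exercise replicate 4). In CSDS with exercise against control, 3 genes became 0 without a filter, with a filter of 1 CPM in 6 libraries, with the GC correction, with only the 2 groups and with the GC correction without control replicate 2; DESeq2 called 113, voom 183, and fits without 1 library 0 to 13. CSDS against control gave 0 throughout, with 588 genes at an unadjusted p under 0.05.

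No label says that the replicate numbers pair mice, and a check for it saw little likeness, although a weak pairing could go unseen. Same-numbered libraries deviated together at r of -0.47 to 0.25, with 1 of 18 pairs above 0.1, and 0 of 18 libraries were closest to their own number. With the replicate block 0 genes were called in CSDS with exercise against control, and Faah was -0.0050 there.

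Signs of some members turned. In CSDS against control, voom gave 0.12 for Mgll and 0.12 for Daglb, and the GC correction without control replicate 2 gave 0.017 for Mgll; with 1 library left out Mgll ran from -0.18 to 0.053 and Daglb from -0.081 to 0.0088. In CSDS with exercise against CSDS, Napepld was -0.055 with the GC correction, -0.057 with it and without control replicate 2, and -0.045 by voom, and Cnr1 was 0.079 by voom; with 1 library left out Cnr1 ran from -0.10 to 0.053, Napepld from -0.036 to 0.12, Abhd6 from -0.098 to 0.016 and Abhd12 from -0.0092 to 0.10. In CSDS with exercise against control, Faah was -0.013 without a filter, -0.0053 with the 1 CPM filter and -0.015 by voom. Napepld was -0.0071 without a filter, -0.065 with the GC correction and -0.18 by voom, and Dagla was 0.11 with the GC correction. With the GC correction and without control replicate 2, Cnr1 was -0.020, Dagla 0.032, Napepld -0.18 and Abhd12 0.050. With 1 library left out Faah ran from -0.17 to 0.11, Dagla from -0.36 to 0.090 and Napepld from -0.092 to 0.070. The cause of these turns was not tested. A p over the threshold does not show equal levels: with 6 mice a group the 95% interval of Dagla spanned about 1 log2 unit.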

Other observations

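The CSDS group had the smallest coefficient of variation of the 3 groups for 7 of 8 members, all but Daglb, and for 48.0% of all genes tested. Cnr1 varied by 21.4% between mice of CSDS with exercise, by 7.20% in CSDS and by 24.3% in control mice. For Napepld these values were 16.4%, 3.49% and 18.91%, and counting error alone averaged 4.04% in CSDS mice. Without control replicate 2 the CSDS group was the least variable for 3 of 8 members (Cnr1, Napepld and Abhd6; 40.3% of all genes) and the control group for 5 (38.3%). Without CSDS with exercise replicate 4 as well, the exercised group was the least variable for Mgll, Dagla and Daglb (39.0% of all genes), the CSDS group for Cnr1, Napepld and Abhd6 (30.8%) and the control group for 2 members (30.2%). These counts carry no test.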
